A study of Mus musculus with 167 samples.

Results

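The 10 genes described here belong to the antioxidant programme that the transcription factor NRF2 drives and to the metabolism of glutathione: Gclc, Gclm, Gsr, Srxn1, Txnrd1, Gstm1, Gstm2, Gstm3, Nqo1 and Hmox1. They are a list of names among the 39179 genes of the count table, with no limit set on a measured value, but the list was drawn up with earlier results of these data known. Messenger RNA of mouse liver was sequenced in 56, 56 and 55 libraries at 2, 6 and 10 months, which fall into 21 groups of 7 genotypes at 3 ages. The genotypes were wild type and 6 lines named by the length of the CAG repeat in a knocked-in Htt allele (Htt encodes huntingtin, and its long repeats cause Huntington's disease): Q20, Q80, Q92, Q111, Q140 and Q175. All knock-in mice were heterozygous, so each also had a wild-type Htt allele. All mice were labelled C57BL/6, of both sexes, at 2, 6 or 10 months, and none was labelled with a treatment. Knock-in mice were housed with mice of their own line and the wild-type mice with Q20 mice, so the housing of the longer lines differs from that of both kinds of control. Groups held 8 libraries, 4 of females and 4 of males, except in Q80. By its labels Q80 had 3 females and 5 males at 2 months, and 4 females and 3 males at 10 months. The design asks whether the length of the repeat, the sex or the age of the mouse goes with a difference in these messages.

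As background, NRF2 (encoded by Nfe2l2) is kept low by KEAP1, which passes it to a CUL3 ubiquitin ligase for destruction. Electrophiles and oxidants modify KEAP1, NRF2 then enters the nucleus, pairs with a small MAF protein and binds antioxidant response elements, while BACH1 occupies such elements as a repressor. The targets make glutathione (Gclc, Gclm), reduce its oxidised form (Gsr), couple it to foreign compounds (the Gstm genes), keep thioredoxin and peroxiredoxins reduced (Txnrd1, Srxn1), reduce quinones (Nqo1) and split heme (Hmox1). In liver most of these enzymes are hepatocyte proteins, whereas heme oxygenase 1 is also made by Kupffer cells, the resident macrophages that take up old red cells.

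The core of an antioxidant response element, in the form with C after TGA, was looked for in the promoters, since the element is the feature that the family is known for. RefSeq windows of GRCm38.p6, which run over the 250 bases before and the 50 bases after a transcript's start, were matched for 7 of the 10 genes, in 10 windows, while Gclc, Gsr and Hmox1 were not matched. The letters TGACNNNGC, read on both strands, stood in 3 of these windows, 1 each of Srxn1, Gclm and Txnrd1, against 12.39% of all 32851 windows. The Srxn1 window is chr2:152105274-152105573, the Gclm window chr3:122245307-122245606 and the Txnrd1 window chr10:82858956-82859255, all on the plus strand. The sequences are shown because they hold the match. Capitals mark it, and in all 3 it is read on the other strand, as TGACCTAGC in Srxn1, TGACGGTGC in Gclm and TGACAAAGC in Txnrd1.
Srxn1: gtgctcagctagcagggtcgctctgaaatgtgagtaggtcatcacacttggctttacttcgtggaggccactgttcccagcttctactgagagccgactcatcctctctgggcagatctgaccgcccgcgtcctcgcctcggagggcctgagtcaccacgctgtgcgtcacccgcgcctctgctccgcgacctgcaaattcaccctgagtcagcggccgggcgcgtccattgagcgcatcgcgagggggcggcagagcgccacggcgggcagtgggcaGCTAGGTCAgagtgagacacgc
Gclm: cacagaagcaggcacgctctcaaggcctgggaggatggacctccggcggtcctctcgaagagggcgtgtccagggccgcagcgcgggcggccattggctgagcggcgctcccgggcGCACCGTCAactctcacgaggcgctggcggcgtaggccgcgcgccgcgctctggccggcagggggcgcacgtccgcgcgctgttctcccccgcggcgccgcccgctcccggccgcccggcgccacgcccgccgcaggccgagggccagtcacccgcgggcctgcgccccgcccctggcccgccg
Txnrd1: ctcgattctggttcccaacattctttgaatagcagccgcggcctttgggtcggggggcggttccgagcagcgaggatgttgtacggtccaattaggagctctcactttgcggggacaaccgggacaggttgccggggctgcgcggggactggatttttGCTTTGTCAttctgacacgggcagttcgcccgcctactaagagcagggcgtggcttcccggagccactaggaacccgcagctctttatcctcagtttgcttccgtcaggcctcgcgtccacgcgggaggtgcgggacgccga
Counted from the start of the transcript as base 1, with no base 0, the match begins at base 29 in Srxn1, at base −134 in Gclm and at base −92 in Txnrd1. The Srxn1 window also held TGAGTCA at bases −102 and −45, which are matches to TGANTCA, the letters of AP-1 and NF-E2 sites. That motif reads the same on both strands, and the 2 matches do not overlap the first motif. The match at −45 is followed by GC, as TGAGTCAGC, which differs from TGACNNNGC only in the base after TGA. A core with G at that base was not searched for, so the capitals in Srxn1 need not mark its element. Of all windows, 7.808% held TGANTCA. A match is a description of letters and not of binding.

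The genes lie on 5 chromosomes of GRCm38 in the GENCODE M21 annotation. Gstm3 (ENSMUSG00000004038, chromosome 3, 107963696 to 107969283), Gstm2 (ENSMUSG00000040562, 107981702 to 107986453) and Gstm1 (ENSMUSG00000058135, 108012255 to 108017973) are neighbours on the minus strand of chromosome 3. Gclm (ENSMUSG00000028124, 122245557 to 122270732) is on the plus strand of the same chromosome. Gsr (ENSMUSG00000031584, 33652523 to 33698163), Hmox1 (ENSMUSG00000005413, 75093621 to 75100589) and Nqo1 (ENSMUSG00000003849, 107388225 to 107403206) are on chromosome 8, Nqo1 on its minus strand. Srxn1 (ENSMUSG00000032802, chromosome 2, 152105516 to 152111376), Gclc (ENSMUSG00000032350, chromosome 9, 77754535 to 77794485) and Txnrd1 (ENSMUSG00000020250, chromosome 10, 82833951 to 82897712) are on plus strands. Of the 50-base windows of their exons, 28.8% in Gstm3, 23.2% in Gstm1 and 9.36% in Gstm2 also occur in another gene or pseudogene, so the split of reads among these loci is uncertain. For Gclm the share was 0.776% and for the other 6 genes 0%. Gclm was also the only one of the 10 genes with an exon over an exon of another gene, Gm6061 on its own strand and Gm17494 on the other, and whether the counting used strand was not stated in the labels or headers.

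The total of expected counts per library was between 32025244 and 57151736, and its median at 2, 6 and 10 months was 34696186, 46777191 and 38228631. Levels are given as CPM (counts scaled to the library total) after TMM normalization, as mean ± SD. Htt, counted over both alleles, was lower in Q175 than in Q20 at each age, at 6 months with 21.2 ± 0.993 CPM, against 31.6 ± 2.71 CPM in Q20 (SD, n = 8 each). Of 8 hepatocyte markers listed, 7 were found in the tables, with Alb at a mean of 77110 CPM. The Q80 library M5 of 2 months goes against its label of male, and values of the sex comparison of 2 months are also given without it. The names of most libraries end in a code. Of the 48 knock-in libraries of 6 months, 46 have codes of one kind, in 3 sets (Q80 with Q175, Q111 with Q140, Q20 with Q92), and Q175 F3 and M3 have none. Elsewhere 106 libraries have codes of another kind, and 15 libraries over all ages have no code, those 2 and M5 of Q80 among them. The Q20 and wild-type libraries of 6 months, and the knock-in libraries of 2 and 6 months, therefore cannot be told apart from the naming of the libraries. Of the longer lines at 6 months Q92 alone shares the code set of Q20. Differences of Q80, Q111, Q140 and Q175 from Q20 at that age cannot be told apart from the code set either. At 6 months the Q20 females F1, F3 and F4 had high Kupffer cell markers. In bulk liver, fewer cells of a type and less RNA per cell cannot be told apart.

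All 10 genes were expressed in every library, and none differed by more than 2-fold between any of the 21 group means. Per length of transcript, Gstm1, a glutathione transferase, was the most abundant at a mean of 1030 FPKM over all libraries, followed by Gclm, the regulatory subunit of glutamate-cysteine ligase, at 75.2 FPKM and Gstm3 at 72.3 FPKM. Gclc, the catalytic subunit of that ligase, had 70.2 FPKM, Gstm2 62.2 FPKM, Txnrd1, the cytosolic thioredoxin reductase, 37.5 FPKM and Gsr, glutathione reductase, 20.9 FPKM. At the low end were Srxn1, sulfiredoxin, with 12.1 FPKM, Hmox1, heme oxygenase 1, with 10.4 FPKM and Nqo1, a quinone reductase, with 6.75 FPKM. The deposited counts behind the 2 lowest genes were still 256 to 1501 per library for Hmox1 and 135 to 1121 for Nqo1.

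The group means spread least for Txnrd1 and most for Hmox1. The highest of the 21 group means was 1.14 times the lowest for Txnrd1, 1.19 times for Gsr, 1.25 times for Gclm, 1.38 times for Srxn1, 1.44 times for Gstm1, 1.46 times for Gclc and 1.48 times for Gstm2. It was 1.6 times for Nqo1, 1.7 times for Gstm3 and 1.83 times for Hmox1. In the order of the 21 levels, 0 of the 20 neighbouring pairs differed by more than the larger of their SDs, for each gene. Neighbours in a sorted order lie close together and these SDs span both sexes, so this count cannot show whether groups differ. Hmox1 was highest in Q20 at 6 months, at 24.7 ± 5.5 CPM, and lowest in Q92 at 10 months, at 13.5 ± 1.66 CPM (SD, n = 8 each). Q20 at 6 months was also the lowest group for Gclc, at 202 ± 81.1 CPM, Gclm, at 165 ± 21.2 CPM, Gsr, at 49.1 ± 12.01 CPM, and Txnrd1, at 119 ± 21.7 CPM, so 5 of the 10 genes had an extreme there. The share of all genes with an extreme in that group was not computed, so this is not shown to be particular to the 10. Of all genes 31.3% passed in Q20 against wild type at 6 months. Within groups of 1 genotype, age and sex the median coefficient of variation was 6.48% for Gsr, 6.75% for Gclm and 7.49% for Txnrd1. It was 18.7% for Nqo1, 20.8% for Hmox1 and 22% for Gstm3, so that small differences were easier to see in the first 3 genes than in the last 3.

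Sex went with the widest differences of these genes. At 2, 6 and 10 months 9, 8 and 7 of the 10 passed the test of females against males, at an adjusted p below 0.05 over all genes tested. The share of all genes that passed was 57.2%, 60.4% and 56.6%, so a high share of the 10 genes is near the background and is not particular to them. Of those that passed, Nqo1 was higher in females at each age, and Gclc, Gclm, Gsr, Srxn1 and Txnrd1 were lower in females at each age, except that Gclm had the other sign on FPKM at 2 months. The median log2 fold change of the 10 genes, female over male, was −0.27, −0.24 and −0.15 at 2, 6 and 10 months, against 0.01, 0.01 and 0.02 over all genes.

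**Figure D1:**
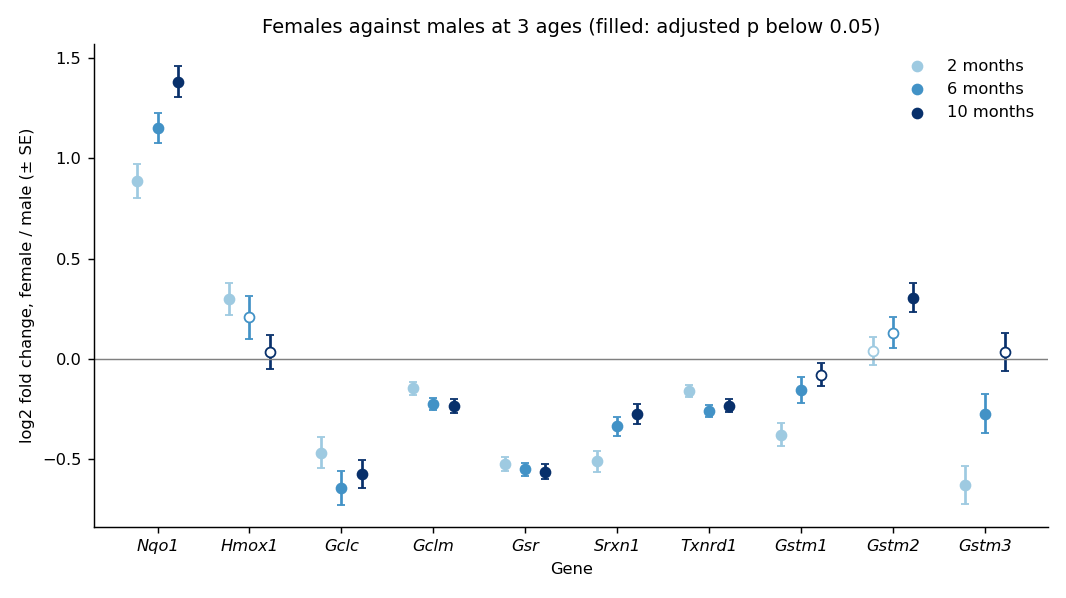
Log2 fold change of females over males for each of the 10 genes at 2, 6 and 10 months, with bars of 1 standard error and filled points for an adjusted p below 0.05. Nqo1 is positive at 0.89, 1.15 and 1.38, and Gsr negative at −0.52, −0.55 and −0.56.

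Nqo1, which reduces quinones with NADH or NADPH, had the largest difference between the sexes among the 10 genes. At 2 months it had 9.25 CPM in the lowest, 12.8 in the median and 16.6 in the highest female library, against 4.21, 6.60 and 13.9 CPM in the male libraries. At 6 months the values were 7.89, 12.7 and 24.3 CPM in females, against 3.90, 5.89 and 8.62 CPM in males. At 10 months they were 11.6, 15.8 and 22.7 CPM in females, against 4.03, 6.26 and 9.16 CPM in males. At 10 months the groups did not overlap, with all 28 females above all 27 males. The highest male value of 2 months is library M5 of Q80, and the other 28 males of that age had 4.21 to 10.3 CPM. The log2 fold changes of the 3 ages were 0.89 ± 0.09, 1.15 ± 0.07 and 1.38 ± 0.08 (SE, adjusted p = 5.53e-13, 1.89e-19 and 2.02e-21).

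Gsr, which returns oxidised glutathione to its reduced form, was lower in females. It had 40.9 CPM in the lowest, 45.8 in the median and 58.2 in the highest female library of 2 months, against 48.7, 68.0 and 77.8 CPM in male libraries. At 6 months it had 32.3, 45.4 and 53.8 CPM in females, against 54.9, 64.5 and 74.5 CPM in males, and at 10 months 39.5, 46.4 and 52.5 CPM in females, against 56.0, 67.0 and 88.2 CPM in males. The sexes did not overlap at 6 and 10 months. At 2 months the lowest male was again M5 of Q80 at 48.7 CPM, and the other males had 56.2 to 77.8 CPM. The log2 fold change was −0.52 ± 0.04, −0.55 ± 0.03 and −0.56 ± 0.04 (SE, adjusted p = 6.11e-18, 4.63e-21 and 5.61e-19).

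Both subunits of glutamate-cysteine ligase, the rate-limiting enzyme of glutathione synthesis, were lower in females, Gclc by more than Gclm. Gclc had 213 ± 53.7 CPM in females and 294 ± 53.1 CPM in males at 2 months, 187 ± 55.4 and 288 ± 54.4 CPM at 6 months, and 188 ± 35.8 and 280 ± 48.4 CPM at 10 months (SD; n = 27 females and 29 males, 28 and 28, 28 and 27). Its log2 fold changes were −0.47 ± 0.08, −0.64 ± 0.08 and −0.57 ± 0.07 (SE, adjusted p = 8.52e-07, 3e-09 and 7.07e-10). The spread within a sex was wide, and the groups overlapped at every age. Gclm had 187 ± 20.4 CPM in females and 206 ± 12.5 CPM in males at 2 months, 173 ± 19.9 and 203 ± 14.1 CPM at 6 months, and 178 ± 15.4 and 210 ± 18.9 CPM at 10 months. Its log2 fold changes were −0.14 ± 0.03, −0.23 ± 0.03 and −0.23 ± 0.03 (SE, adjusted p = 0.000136, 9.72e-09 and 4.16e-08), but on FPKM they were 0.01, −0.08 and −0.04, so its direction flipped at 2 months. The FPKM scale moved the median of all genes by 0.0914, 0.122 and 0.151 at these ages, and relative to that shift Gclm was at −0.08, −0.20 and −0.19.

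The 2 genes of the thioredoxin side were lower in females as well. Srxn1, which repairs overoxidised peroxiredoxins, had 24.1 ± 2.94 CPM in females and 34.4 ± 4.84 CPM in males at 2 months, 28.8 ± 4.65 and 36.5 ± 4.95 CPM at 6 months, and 27.5 ± 3.95 and 33.2 ± 4.13 CPM at 10 months. Its log2 fold changes were −0.51 ± 0.05, −0.34 ± 0.05 and −0.27 ± 0.05 (SE, adjusted p = 2.17e-12, 3.04e-08 and 4.15e-06). Txnrd1, which reduces thioredoxin with NADPH, had 121 ± 10.4 CPM in females and 135 ± 9.93 CPM in males at 2 months, and its log2 fold changes were −0.16 ± 0.03, −0.26 ± 0.03 and −0.23 ± 0.03 (adjusted p = 1.95e-05, 5.93e-10 and 3.02e-08).

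The 3 Gstm genes, whose products couple glutathione to electrophiles, did not share a sex difference. At 2 months Gstm1 had 1127 ± 162 CPM in females and 1468 ± 246 CPM in males, or −0.38 ± 0.06 on the log2 scale (SE, adjusted p = 3.89e-07), and at 6 months it was at −0.15 ± 0.06 (adjusted p = 0.0308). Gstm3 had 73.6 ± 19.6 CPM in females and 115 ± 27.7 CPM in males at 2 months, or −0.63 ± 0.10 (adjusted p = 1.71e-07), and 77.4 ± 21.9 and 94.3 ± 26.0 CPM at 6 months, or −0.27 ± 0.10 (adjusted p = 0.016). At 10 months Gstm3 had 82.0 ± 26.6 CPM in females and 79.9 ± 19.7 CPM in males, which did not pass. Gstm2 passed at 10 months alone, with 70.1 ± 15.1 CPM in females and 57.1 ± 12.8 CPM in males, a log2 difference of 0.30 ± 0.07 (adjusted p = 0.000331).

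Hmox1 passed at 2 months, when it had 17.1 ± 2.95 CPM in females and 14.0 ± 3.21 CPM in males, a log2 difference of 0.30 ± 0.08 (SE, adjusted p = 0.000977). At 6 months the value was 0.21 with an adjusted p of 0.0886, and at 10 months the means were 16.6 ± 3.39 CPM in females and 16.2 ± 4.65 CPM in males. The Kupffer cell markers moved with sex too: 11, 12 and 10 of the 12 markers were higher in females at 2, 6 and 10 months. Of all genes 57.2%, 60.4% and 56.6% passed in either direction. Their summed level had a lowest, median and highest library of 349, 521 and 770 CPM in females, against 212, 403 and 688 CPM in males at 2 months, and none of the 12 was at 0 in any library. The part of these cells in the sex difference of Hmox1 was not tested.

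Whether the sex difference itself moved with age was tested in a comparison added after the data were seen. Between 10 and 2 months 4 of the 10 genes passed, against 2.89% of all genes, and in all 4 the value of females over males was more positive at 10 months. The change was 0.67 ± 0.14 on the log2 scale for Gstm3 (SE, adjusted p = 0.000952), 0.50 ± 0.12 for Nqo1 (adjusted p = 0.0051), 0.30 ± 0.08 for Gstm1 (adjusted p = 0.0227) and 0.24 ± 0.07 for Srxn1 (adjusted p = 0.0418). For Nqo1 this is a wider gap between the sexes, and for Gstm3, Gstm1 and Srxn1 a narrower one. These fits counted library M5 of Q80 as a male of 2 months and were not repeated without it. Without M5 the sex difference of 2 months alone was 0.92 for Nqo1, −0.65 for Gstm3, −0.39 for Gstm1 and −0.53 for Srxn1. With M5 it was 0.89, −0.63, −0.38 and −0.51. Female Gstm3 had a mean of 73.6, 77.4 and 82.0 CPM at 2, 6 and 10 months, while male Gstm3 had 115, 94.3 and 79.9 CPM. Between 6 and 2 months 1.05% of all genes and 0 of the 10 passed in edgeR, with 5 of the 10 at an unadjusted p under 0.05 and 0 in DESeq2 and in limma on FPKM.

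**Figure D2:**
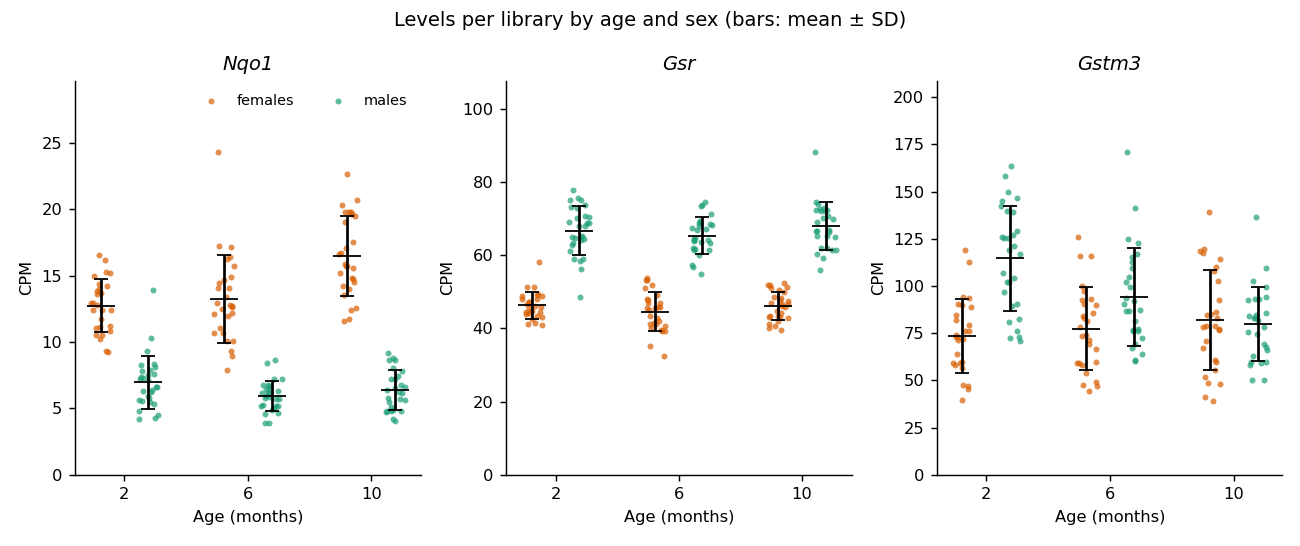
CPM of Nqo1, Gsr and Gstm3 (vertical axes, linear, each with its own scale) in every library at 2, 6 and 10 months, females left of males, with the mean and 1 SD. Nqo1 is above in females, with means of 16.5 CPM, against 6.36 CPM in males, at 10 months, Gsr is below in females, and the Gstm3 means are 73.6 CPM in females and 115 CPM in males at 2 months and 82.0 and 79.9 CPM at 10 months.

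The direction was shared by the genotypes for most of the family. The female mean in CPM was above the male mean in all 7 genotypes at each age for Nqo1, and below it in all 7 at each age for Gclc, Gclm, Gsr, Srxn1 and Txnrd1. Gstm3 was lower in females in 7, 5 and 4 of the 7 genotypes at 2, 6 and 10 months. In the wild-type libraries alone, 4 females against 4 males at each age, 3 of the 10 genes passed at each age. Nqo1 was at 1.04, 1.501 and 1.35 on the log2 scale (adjusted p = 0.00775, 0.000111 and 0.005) and Gsr at −0.45, −0.52 and −0.51 (adjusted p = 0.00121, 0.00252 and 0.00284). The third was Srxn1 at 2 months, at −0.52 (adjusted p = 0.0188), and Gclc at 6 and 10 months, at −0.73 and −0.55 (adjusted p = 0.025 and 0.012). Gstm3 had the other sign in wild type at 6 months, at 0.16 (adjusted p = 0.724). Without library M5 of Q80 the values of 2 months were 0.92 ± 0.08 for Nqo1 and −0.54 ± 0.03 for Gsr (SE), and the same number of genes, 9, passed.

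Age was compared within the knock-in lines and within wild type. Between 6 and 2 months in knock-in lines 5 of the 10 genes passed, against 54.4% of all genes. Srxn1 was higher at 6 months by 0.16 ± 0.04 on the log2 scale (SE, adjusted p = 0.00053) and Gstm1 by 0.15 ± 0.05 (adjusted p = 0.00998). Gstm2 was at −0.16 ± 0.05 (adjusted p = 0.00806), Nqo1 at −0.16 ± 0.06 (adjusted p = 0.0237) and Gclm at −0.07 ± 0.03 (adjusted p = 0.0202), with Gclm at 0.02 on FPKM. Library codes changed with age in these lines, so age and the kind of library cannot be told apart there. In wild type, where 6, 8 and 7 of the 8 libraries at 2, 6 and 10 months have codes of 1 kind and the others none, 1.65% of all genes and 0 of the 10 passed between 6 and 2 months in edgeR, with 3 at an unadjusted p under 0.05 and 0 in DESeq2 and in limma. Between 10 and 2 months 21.4% of all genes and 0 of the 10 passed in the knock-in lines, with 2 at an unadjusted p under 0.05, 0 in DESeq2 and 1 in limma. In wild type between 10 and 2 months 1.09% of all genes and 0 of the 10 passed in edgeR, with 3 at an unadjusted p under 0.05, 1 in DESeq2 and 0 in limma. Wild-type Hmox1 averaged 18.9 ± 3.50 CPM at 10 months and 13.9 ± 2.44 CPM at 2 months, a log2 difference of 0.45 ± 0.12 with an adjusted p of 0.0908.

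For the length of the repeat, each longer line was set against Q20, the same Q20 libraries serving in all 5 comparisons, and a slope per 100 repeats was fitted over the 6 lines. At 2 months 0 of the 10 genes passed in any of these. The share of all genes that passed was 0.266% for the slope, 0.0991% for Q80, 0% for Q92, 0% for Q111, 0% for Q140 and 0.258% for Q175. At an unadjusted p under 0.05 there were 1 of the 10 genes for the slope, 0 for Q80, 1 for Q92, 0 for Q111, 0 for Q140 and 1 for Q175, and DESeq2 and limma passed none of the 10. At 10 months again 0 of the 10 passed, with 0.25% of all genes for the slope, 0.00637% for Q80, 3.72% for Q92, 0.962% for Q111, 0% for Q140 and 0.931% for Q175. Unadjusted p-values under 0.05 were found for 1 of the 10 genes for the slope, 1 for Q80, 2 for Q92, 2 for Q111, 1 for Q140 and 0 for Q175. DESeq2 passed 1 gene at 10 months, in Q111, and limma none. The log2 fold changes of the 10 genes in these 5 lines lay between −0.40, for Gstm3 in Q92 at 2 months, and 0.46, for Gstm2 in Q111 at 10 months (adjusted p = 0.657 and 0.0806).

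The comparison of Q20 with wild type gave 0 of the 10 at 2 months and 0 at 10 months in edgeR, DESeq2 and limma, also with 0 at an unadjusted p under 0.05 at either age. Of all genes 0% passed at 2 months and 0.00637% at 10 months. At 6 months 31.3% of all genes passed and with them 3 of the 10, Hmox1 higher in Q20 and Gclm and Gsr lower, with Gclm of the other sign on FPKM.

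At 6 months genes of the family passed in the slope and in 4 of the 5 lines. Of these lines Q80, Q140 and Q175 do not share the set of library codes of Q20, and Q92 does. The slope passed for 5.67% of all genes and for 2 of the 10, Gstm1 with a positive and Hmox1 with a negative slope. Against Q20, 8.24% of all genes and 3 of the 10 passed in Q80, 16.6% and 3 of the 10 in Q92, 4.91% and 4 of the 10 in Q140, and 10.2% and 1 of the 10 in Q175. In Q111 0.678% of all genes and 0 of the 10 passed in edgeR, with 5 of the 10 at an unadjusted p under 0.05 and 0 in DESeq2 and in limma. Hmox1 was lower than in Q20 in the 3 lines Q80, Q92 and Q175, Gclm higher in Q80, Q92 and Q140, and Gsr higher in Q80 and Q140. Gclc and Gstm1 passed in Q140 and Srxn1 in Q92, while Nqo1, Gstm2, Gstm3 and Txnrd1 passed in no line. Without Q20 females F1, F3 and F4 none of the 10 passed in the slope or in any line against Q20, and all values named here kept their sign. The count over all genes fell with them, to 125 in Q80, 384 in Q92, 132 in Q140 and 2 in Q175, against 1288, 2602, 768 and 1595 with all libraries.

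**Figure D3:**
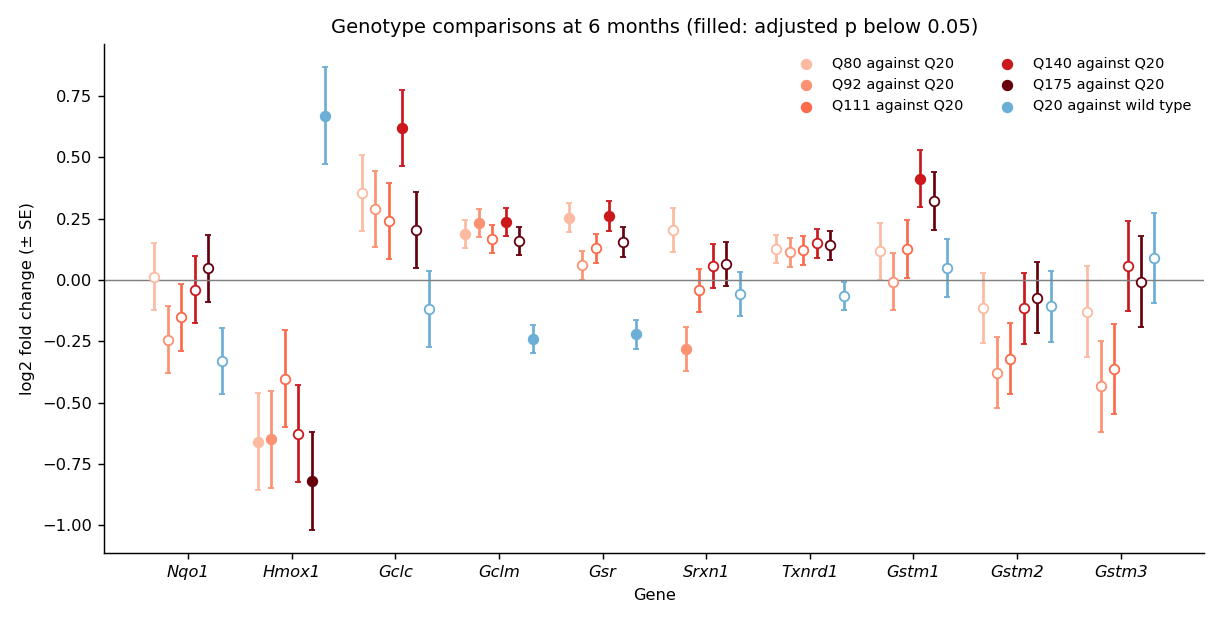
Log2 fold change at 6 months (bars of 1 standard error) of each of the 10 genes in Q80, Q92, Q111, Q140 and Q175 against the same 8 Q20 libraries, and of Q20 against wild type, with filled points for an adjusted p below 0.05. Hmox1 lies at −0.66, −0.65, −0.40, −0.63 and −0.82 in the 5 lines and at 0.67 in Q20 against wild type.

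Hmox1, which splits heme into biliverdin, iron and carbon monoxide, had its highest level of all groups in Q20 at 6 months. At that age its lowest, median and highest library had 10.4, 15.1 and 21.6 CPM in wild type, 16.03, 26.3 and 32.5 CPM in Q20, 11.8, 16.4 and 18.5 CPM in Q80, 9.94, 17.5 and 18.8 CPM in Q92, 10.9, 18.5 and 30.3 CPM in Q111, 12.1, 15.1 and 25.8 CPM in Q140, and 7.41, 14.8 and 29.9 CPM in Q175. Of the 8 Q175 libraries 7 lay below all 8 Q20 libraries, and the other, female F1, had 29.9 CPM. Below all Q20 libraries lay also 6 of 8 in Q140, 3 of 8 in Q111, 3 of 8 in Q92 and 4 of 8 in Q80, while 6 of the 8 Q20 libraries lay above all 8 of wild type. The log2 fold change against Q20 was −0.66 ± 0.20 in Q80 (SE, adjusted p = 0.0316), −0.65 ± 0.20 in Q92 (adjusted p = 0.0194), −0.40 ± 0.20 in Q111 (adjusted p = 0.287), −0.63 ± 0.20 in Q140 (adjusted p = 0.0508) and −0.82 ± 0.20 in Q175 (adjusted p = 0.00728). Q20 against wild type was at 0.67 ± 0.20 (adjusted p = 0.00754), and library names differ between these groups. The means of the 5 longer lines, between 14.4 and 18.8 CPM, lay around the wild-type mean of 15.7 CPM.

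The slope of Hmox1 at 6 months was −0.45 ± 0.12 per 100 repeats (adjusted p = 0.0182) and rested on Q20. Without the Q20 libraries it was −0.18 (adjusted p = 0.758), without Q20 female F4 alone −0.41 (adjusted p = 0.0587), and without F1, F3 and F4 −0.34 (adjusted p = 0.291). With the set of library codes as a covariate, a fit that leaves out Q175 F3 and M3, which have no code, it was −0.41 ± 0.18 (adjusted p = 0.161). Without F1, F3 and F4 the values were −0.55 in Q80 (adjusted p = 0.298), −0.53 in Q92 (adjusted p = 0.196), −0.70 in Q175 (adjusted p = 0.171) and 0.55 in Q20 against wild type (adjusted p = 0.0856). Leaving out 1 library ended the call in Q92 without Q92 F2 (adjusted p = 0.0565) and in Q80 without Q20 F1, F4 or M2 or Q80 F2 or M4 (adjusted p between 0.0509 and 0.0765). At 2 months Hmox1 had 16.8 ± 3.26 CPM in Q175, against 15.2 ± 4.45 CPM in Q20. At 10 months it had 15.96 ± 3.61 CPM in Q175, against 16.4 ± 2.18 CPM in Q20 (SD, n = 8 each).

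**Figure D4:**
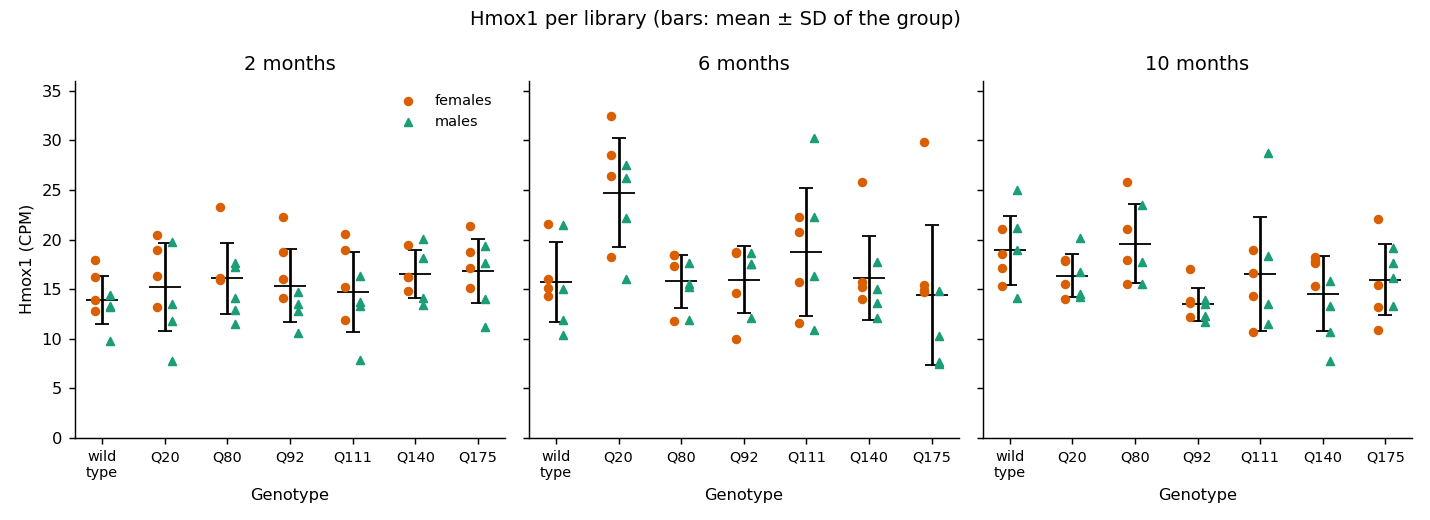
Hmox1 in CPM (vertical axis, linear) in every library of the 7 genotypes, ordered by repeat length with wild type first, at 2, 6 and 10 months, with the mean and 1 SD and females and males marked. Q20 at 6 months stands at 24.7 ± 5.5 CPM, above the other 6 genotypes of that age, whose means are 14.4 to 18.8 CPM.

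The Kupffer cell markers moved with Hmox1 at 6 months. All 12 markers listed were found and none was at 0. Their summed level had a lowest, median and highest library of 259, 446 and 828.9 CPM in wild type, 420, 624.9 and 1308 CPM in Q20, 311, 553 and 594 CPM in Q80, 294, 434 and 631 CPM in Q92, 242, 539 and 715 CPM in Q111, 319, 433 and 497 CPM in Q140, and 140, 497 and 603 CPM in Q175. The 4 Q20 females had 1102, 724, 1111 and 1308 CPM, and the 4 Q20 males had 526, 502, 507 and 420 CPM. Hmox1 in those males was 16.03, 26.2, 22.2 and 27.5 CPM, against 10.4, 21.4, 15.05 and 11.9 CPM in the wild-type males. The summed markers of the wild-type males were 357.9, 390.6, 454.8 and 258.8 CPM. For Hmox1 the Q20 males M2, M3 and M4 lay above all 4 wild-type males, and for the summed markers M1, M2 and M3 did. Among the 4 Q20 males M1 had the highest markers and the lowest Hmox1, and M4 the lowest markers and the highest Hmox1. Against Q20, 2 of the 12 markers were lower in Q80, 10 in Q92, 0 in Q111, 11 in Q140 and 10 in Q175, and 9 were higher in Q20 than in wild type. The share of all genes that passed in either direction was 8.24%, 16.6%, 0.678%, 4.91% and 10.2% in these lines, and 31.3% in Q20 against wild type. In Q175 Lyz2, a macrophage lysozyme, was at −0.95 ± 0.21 and Csf1r, the receptor that macrophages need to survive, at −1.06 ± 0.24 (SE, adjusted p = 0.00377 and 0.00489). Markers of neutrophils and of sinusoidal endothelium were also lower in Q175, 5 of 6 and 4 of 8, beside 10.2% of all genes in either direction. Without Q20 F1, F3 and F4 none of these 3 lists had a member that passed in Q175, 0 Kupffer cell markers passed in any other line or in Q20 against wild type, and Lyz2 and Csf1r were at −0.51 and −0.63 in Q175 (adjusted p = 0.279 and 0.267).

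Across libraries of 1 age, after removal of the means of genotype and sex, Hmox1 followed the summed Kupffer cell markers. Pearson's r for the 3 ages was 0.774, 0.657 and 0.622 (n = 56, 56 and 55), and Spearman's rho was 0.705, 0.638 and 0.660. Without the 2 libraries farthest from the median r was 0.698, 0.638 and 0.632. The permutation p, adjusted over the 165 relations computed, was 0.000206, 0.000367 and 0.000206, and Hmox1 was the only one of the 10 genes whose relation to these markers passed at every age. Within the sets of library codes at 6 months r was 0.568 in Q80 and Q175 (rho = 0.521, n = 14, permutation p = 0.0495 and 0.0791), 0.694 in Q111 and Q140 (rho = 0.568, n = 16, permutation p = 0.0244 and 0.0458) and 0.729 in Q20 and Q92 (rho = 0.674, n = 16, permutation p = 0.00723 and 0.0202). Without Q20 females F1, F3 and F4 it was 0.636. The part of these cells in the differences of Hmox1 between genotypes was not tested.

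**Figure D5:**
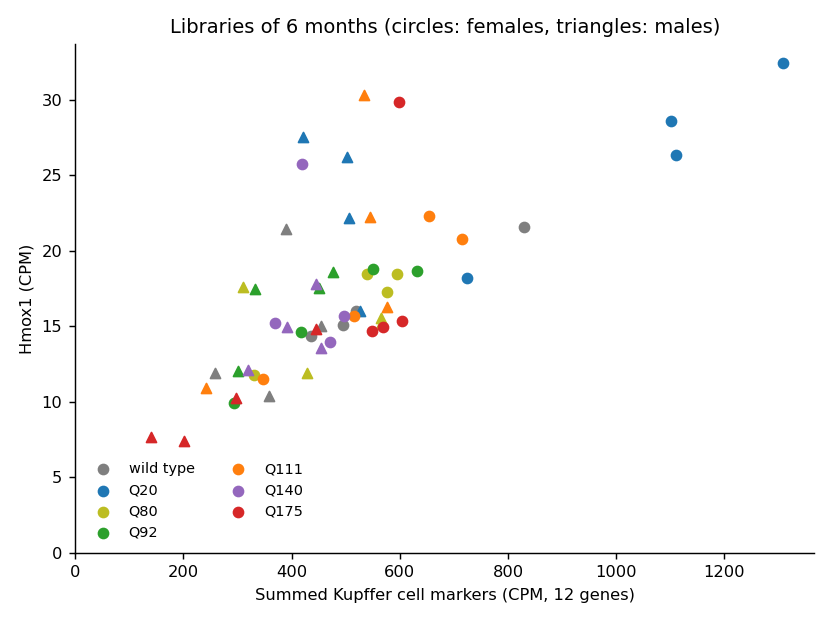
Hmox1 in CPM (vertical axis) against the summed Kupffer cell markers in CPM (horizontal axis) at 6 months, with 1 point per library of that age. The points rise together. On log2 CPM less the mean of the library's genotype and sex, which is not what is drawn, r was 0.657 at 6 months. It was 0.774 and 0.622 at 2 and 10 months, which are not drawn.

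Of the genes of glutathione synthesis and reduction, Gclm was higher than in Q20 in 3 longer lines at 6 months, Gsr in 2 and Gclc in 1. Gclm had a lowest, median and highest library of 168, 194 and 236 CPM in wild type, 134, 166 and 193 CPM in Q20, 153, 201 and 219 CPM in Q80, 184, 196 and 224 CPM in Q92, 141, 199 and 223 CPM in Q111, 161, 200 and 214 CPM in Q140, and 155, 189 and 206 CPM in Q175. The groups overlapped in every pair with Q20. The log2 fold change against Q20 was 0.19 ± 0.06 in Q80 (SE, adjusted p = 0.0343), 0.23 ± 0.06 in Q92 (adjusted p = 0.00533), 0.17 ± 0.06 in Q111 (adjusted p = 0.124), 0.24 ± 0.06 in Q140 (adjusted p = 0.0104) and 0.16 ± 0.06 in Q175 (adjusted p = 0.0664). Q20 against wild type was at −0.24 ± 0.06 (adjusted p = 0.00101), but at 0.02 (adjusted p = 0.894) on FPKM, where the median of all genes was at 0.105 and Gclm at −0.09 relative to it.

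Gsr had a lowest, median and highest library of 45.7, 55.3 and 74.5 CPM in wild type, 32.3, 49.3 and 63.9 CPM in Q20, 45.7, 57.5 and 68.8 CPM in Q80, and 45.2, 59.0 and 69.0 CPM in Q140. The sexes lie apart in each group, and within females all 4 Q140 and all 4 Q80 libraries were above all 4 Q20 libraries, whose values were 39.5, 42.0, 39.4 and 32.3 CPM. The log2 fold change against Q20 was 0.25 ± 0.06 in Q80 (SE, adjusted p = 0.00799), 0.26 ± 0.06 in Q140 (adjusted p = 0.00825), 0.06 ± 0.06 in Q92 (adjusted p = 0.517), 0.13 ± 0.06 in Q111 (adjusted p = 0.253) and 0.16 ± 0.06 in Q175 (adjusted p = 0.0856). Q20 against wild type was at −0.22 ± 0.06 (adjusted p = 0.00351). Gclc passed in Q140, with 165, 294 and 376 CPM in its lowest, median and highest library, against 101, 205 and 295 CPM in Q20, and a log2 difference of 0.62 ± 0.16 (adjusted p = 0.0141). In Q80, Q92, Q111 and Q175 Gclc was at 0.36, 0.29, 0.24 and 0.20 (adjusted p = 0.139, 0.19, 0.432 and 0.426). Without Q20 females F1, F3 and F4 the values in Q140 were 0.42 for Gclc (adjusted p = 0.303), 0.21 for Gclm (adjusted p = 0.128) and 0.21 for Gsr (adjusted p = 0.146), and those in Q80 were 0.17 for Gclm (adjusted p = 0.267) and 0.21 for Gsr (adjusted p = 0.15). In Q92 Gclm was then at 0.22 (adjusted p = 0.0647).

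Gstm1 was higher in Q140 than in Q20 in every library at 6 months. It had 1403, 1712 and 1883 CPM in the lowest, median and highest Q140 library, against 1083, 1254 and 1390 CPM in Q20, a log2 difference of 0.41 ± 0.12 (SE, adjusted p = 0.0291). In Q175 the lowest, median and highest were 1100, 1431 and 2372 CPM and the value was 0.32 ± 0.12 (adjusted p = 0.0665), with the 2 highest libraries in males M3 and M4 at 2185 and 2372 CPM. Its slope was 0.27 ± 0.07 per 100 repeats (adjusted p = 0.0213), and 0.24 without Q175 M3 (adjusted p = 0.0517), 0.23 without M4 (adjusted p = 0.0621), 0.18 ± 0.10 with the set of library codes as a covariate and thus without Q175 F3 and M3 (adjusted p = 0.295) and 0.35 without the Q20 libraries (adjusted p = 0.165). Without Q20 F1, F3 and F4 it was 0.39 in Q140 (adjusted p = 0.211). The adjusted p in Q140 was also above the threshold without Q140 F1 or F3 or Q20 F1 or F3, between 0.0542 and 0.0618. Of the other Gstm genes in Q92, Gstm2 was at −0.38 ± 0.14 (adjusted p = 0.0621) and Gstm3 at −0.43 ± 0.18 (adjusted p = 0.0936).

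Srxn1 was lower in Q92 than in Q20 at 6 months, with 20.0, 25.8 and 36.9 CPM in the lowest, median and highest Q92 library, against 23.4, 31.8 and 36.7 CPM in Q20. The groups overlapped, and the log2 fold change was −0.28 ± 0.09 (SE, adjusted p = 0.0244), within 1 set of library codes. Without Q20 F1, F3 and F4 it was −0.28 (adjusted p = 0.113), and leaving out any 1 of Q20 F1, F2 or F4 or Q92 F1 or M3 gave an adjusted p between 0.0513 and 0.086. Txnrd1 was at 0.14 ± 0.06 in Q175 (adjusted p = 0.111), and Nqo1 was at −0.33 ± 0.14 in Q20 against wild type (adjusted p = 0.0564).

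Whether the slope differed between sexes or ages was tested directly. For females against males 0%, 0.213% and 0.173% of all genes passed at 2, 6 and 10 months, and 0 of the 10 passed at each age in edgeR. At an unadjusted p under 0.05 there were 0, 3 and 1 of the 10, DESeq2 passed 0, 1 and 0, and limma passed none. Gstm2 at 6 months was nearest, with a slope in females less that in males of −0.56 ± 0.15 (SE, adjusted p = 0.0725). Between ages 0.285% of all genes passed for 6 against 2 months and 0.82% for 10 against 2 months, and 0 of the 10 in both in edgeR, DESeq2 and limma, with 4 and 1 at an unadjusted p under 0.05. The slope of 6 months less that of 2 months was −0.54 ± 0.15 for Hmox1 (adjusted p = 0.0782) and 0.35 ± 0.09 for Gstm1 (adjusted p = 0.0699). A difference of these slopes between ages was therefore not shown at this threshold.

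Of 9 genes that control NRF2, some passed in comparisons of genotypes at 6 months. Of all genes 5.67% passed in the slope, 8.24% in Q80, 4.91% in Q140, 10.2% in Q175 and 31.3% in Q20 against wild type. Keap1, the inhibitor of NRF2, passed with a slope of 0.09 ± 0.03 (SE, adjusted p = 0.0473) and in Q140 at 0.19 ± 0.05 (adjusted p = 0.0122). Bach1, the repressor, was lower than in Q20 in Q175 at −0.43 ± 0.13 (adjusted p = 0.0298) and in Q80 at −0.41 ± 0.13 (adjusted p = 0.0437), and Cul3 was lower in Q20 than in wild type at −0.21 ± 0.05 (adjusted p = 0.000969). Nfe2l2 itself passed in none of these comparisons. Without Q20 F1, F3 and F4 the slope of Keap1 was 0.05 (adjusted p = 0.522) and its value in Q140 0.14 (adjusted p = 0.239). Bach1 was then at −0.47 in Q175 and −0.45 in Q80 (adjusted p = 0.162 and 0.168), and Cul3 still passed at −0.21 in Q20 against wild type (adjusted p = 0.0081). The list's median slope was −0.04, against 0.0008 over all genes.

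In the slope of 6 months 5.67% of all genes passed, and the median slope over all genes was 0.0008. Of 20 other NRF2 targets tested at 6 months, 3 passed with a positive and 0 with a negative slope, and the median slope of the 20 was 0.10. They were Blvrb, a biliverdin reductase, at 0.20 ± 0.05 (SE, adjusted p = 0.0128), Me1, malic enzyme, at 0.45 ± 0.12 (adjusted p = 0.0176), and Tkt, transketolase, at 0.14 ± 0.04 (adjusted p = 0.0358). In Q175 5 of the 20 were higher than in Q20 and 0 lower, against 10.2% of all genes, among them Blvrb at 0.35 ± 0.09 (adjusted p = 0.00855) and Me1 at 0.66 ± 0.19 (adjusted p = 0.0205). In Q140 3 were higher, against 4.91% of all genes in either direction, among them Fth1, the ferritin heavy chain, at 0.25 ± 0.06 (adjusted p = 0.0137). Without Q20 F1, F3 and F4 0 of these targets passed in the slope, in Q140 or in Q175, with Blvrb at 0.35 and Me1 at 0.66 in Q175 (adjusted p = 0.131 and 0.18) and Fth1 at 0.27 in Q140 (adjusted p = 0.0742). G6pdx, which makes NADPH, was lower than in Q20 at 6 months in Q80 at −0.41 ± 0.13 (adjusted p = 0.0396) and in Q92 at −0.46 ± 0.13 (adjusted p = 0.0121). Others of the 20 were higher there, among them Ephx1 in Q80 at 0.38 ± 0.11 (adjusted p = 0.0251) and Fth1 in Q92 at 0.34 ± 0.06 (adjusted p = 0.000737). At 10 months 1 of the 20 passed in Q175, beside 0.931% of all genes. It was G6pdx, which was higher there at 0.67 ± 0.16 (adjusted p = 0.027). Of 19 other glutathione transferases 0 passed in the slope, in Q140 or in Q175 at 6 months. In Q92, where 16.6% of all genes passed, 1 was lower (Gstm7, −0.27 ± 0.10, adjusted p = 0.0491). In Q20 5 were lower than in wild type, where 31.3% of all genes passed, Mgst1 furthest at −0.47 ± 0.08 (adjusted p = 5.26e-06). Without the 3 Q20 females Gstm7 was at −0.19 (adjusted p = 0.363), and 4 were lower in Q20 than in wild type, with Mgst1 at −0.46 (adjusted p = 0.000216). Of 12 other antioxidant enzymes 0 passed in the slope. In Q92 2 were higher, the superoxide dismutases Sod2 and Sod1 at 0.21 and 0.20, beside 16.6% of all genes in either direction. In Q20 6 were lower than in wild type, beside 31.3% of all genes in either direction. Without the 3 females Sod2 was at 0.20 and Sod1 at 0.23 in Q92 (adjusted p = 0.0483 and 0.0657), and 3 enzymes were lower in Q20 than in wild type. Of 15 genes of glutathione synthesis and use, 2 were higher and 1 lower in Q175 at 6 months, beside 10.2% of all genes in either direction. Glo1, glyoxalase, was among the higher at 0.25 ± 0.07 (adjusted p = 0.0184). The lower was Mat1a, which makes S-adenosylmethionine, at −0.33 ± 0.10 (adjusted p = 0.0242). Neither was particular to Q175. Glo1 was also higher in Q80, Q111 and Q140, at 0.37, 0.28 and 0.30 (adjusted p = 0.00324, 0.0457 and 0.00885). Mat1a was also lower in Q92 and Q140, at −0.35 in both (adjusted p = 0.0121 and 0.0248). Without the 3 females Glo1 and Mat1a were at 0.20 and −0.32 in Q175 (adjusted p = 0.247 and 0.189).

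The same lists differed by sex in both directions. Of the regulators Nfe2l2 was higher in females by 0.11 ± 0.04, 0.19 ± 0.05 and 0.23 ± 0.05 at 2, 6 and 10 months (SE, adjusted p = 0.017, 0.000787 and 0.000457), while Sqstm1, whose product binds KEAP1, was at −0.44, −0.50 and −0.47. Of the other NRF2 targets 6, 7 and 5 were higher and 9, 10 and 9 lower in females, where 57.2%, 60.4% and 56.6% of all genes passed in either direction. Aox1, aldehyde oxidase, was at −1.12, −1.22 and −1.17, and Ephx1, an epoxide hydrolase, at −0.68, −0.71 and −0.63. Abcc4, an efflux transporter, was at 1.36, 1.78 and 2.16, and Cbr1, a carbonyl reductase, at 0.55, 0.72 and 0.88. As for Nqo1, the excess in females was larger at 10 than at 2 months, by 0.81 ± 0.17 for Abcc4 (SE, adjusted p = 0.00161) and 0.33 ± 0.09 for Cbr1 (adjusted p = 0.0172).

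Among the other glutathione transferases 7, 9 and 8 of 19 were higher and 7, 6 and 6 lower in females, beside the same shares of all genes. Gstp1 was lower by the most, at −3.38 ± 0.13, −3.39 ± 0.07 and −3.20 ± 0.10 on the log2 scale (SE), and Mgst3 was higher at 0.92, 1.14 and 1.23. Catalase (Cat) was at −0.42, −0.39 and −0.44 and Glo1 at −0.63, −0.72 and −0.76. In heme handling Alas1, the first enzyme of heme synthesis, was higher in females at 1.04, 1.38 and 1.15, and Hmox2, the constitutive heme oxygenase, was lower at −0.14, −0.13 and −0.15. All values of these lists are from the same tests over all genes.

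Some of the 10 genes varied together from library to library within an age, once the means of genotype and sex were removed. Of the 45 pairs, 10, 9 and 9 passed at 2, 6 and 10 months, and all of them were positive except Nqo1 with Hmox1 at 10 months, at r of −0.474 (adjusted permutation p = 0.0221), whose rho of −0.398 did not pass (adjusted permutation p = 0.0525). Passed at each age were Gstm1 with Gstm3 (r = 0.809, 0.722 and 0.689), Gclc with Gclm (0.695, 0.617 and 0.673), Gstm2 with Gstm3 (0.650, 0.650 and 0.583) and Gclc with Txnrd1 (0.592, 0.425 and 0.394). Spearman's rho lay between 0.677 and 0.809, 0.578 and 0.696, 0.579 and 0.630, and 0.390 and 0.502 for these 4 pairs, and r without the 2 libraries farthest from the median between 0.612 and 0.787, 0.602 and 0.683, 0.554 and 0.597, and 0.397 and 0.478. The highest permutation p over the 3 ages, adjusted over the 165 relations, was 0.000206 for Gstm1 with Gstm3, 0.0009 for Gclc with Gclm, 0.00152 for Gstm2 with Gstm3 and 0.0455 for Gclc with Txnrd1, each for Pearson's r, and 0.000236, 0.00212, 0.0019 and 0.0477 for rho. The value 0.000206 is the smallest reached. Gstm1 with Gstm2 passed at 2 months alone, with r of 0.433, 0.356 and 0.411 at 2, 6 and 10 months (adjusted permutation p = 0.0443, 0.1 and 0.0678). In a check added after the data were seen, within the 3 sets of library codes at 6 months, r was 0.744, 0.601 and 0.659 for Gstm1 with Gstm3, which passed in each (permutation p = 0.0106, 0.0367 and 0.0141), in the order Q80 with Q175 (n = 14), Q111 with Q140 and Q20 with Q92 (n = 16 each). The other 3 pairs were positive in each set but did not hold in each: Gclc with Gclm had r of 0.533, 0.765 and 0.460 (permutation p = 0.0771, 0.0174 and 0.111), Gstm2 with Gstm3 had 0.553, 0.365 and 0.723 (permutation p = 0.136, 0.186 and 0.00986), and Gclc with Txnrd1 had 0.232, 0.913 and 0.324 (permutation p = 0.489, 0.00074 and 0.191). These points share a library, its depth and its makeup of cells, and the Gstm genes share some sequence.

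Over all libraries together, with the means of genotype, age and sex removed, the 14978 genes tested at all ages were ranked by Pearson's r to each gene, as a description. Gsr was most like Psmd11, a proteasome subunit (r = 0.712), Rad23b (0.670) and Sqstm1 (0.663). Gstm1 was most like Gstm3 (0.742), Gsta4 (0.727) and Gsta2 (0.655), and Gstm3 like Gstm1 (0.742), Gstm4 (0.631) and Gstm2 (0.626). For Gstm2 they were Gstm6 (0.651), Gcat (0.637) and Aldh1a7 (0.631), and for Nqo1 they were Mgst3 (0.633), Hamp2 (0.632) and Sqor (0.627). Hmox1 was most like Slc11a1, a metal transporter of macrophages (0.712), C1qb, which is 1 of the Kupffer cell markers (0.696), and Syk (0.694). Gclc was most like Rabep1 (0.725), Rhod (0.723) and Tab2 (0.711), and Gclm like Ap3s1 (0.718), Slc17a2 (0.678) and 1700066M21Rik (0.674). Txnrd1 was most like Usp47 (0.689), Cacul1 (0.674) and Ugt2b34 (0.665), and Srxn1 like Dpp3 (0.639), Abhd4 (0.637) and Mrps2 (0.636).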

How the data were processed

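PolyA RNA of mouse livers was measured by sequencing on Illumina HiSeq instruments, per the labels. Tissue was frozen and RNA was extracted with a Qiagen kit, and base calling used CASAVA 1.8.2, per the submitters' processing notes. How reads were aligned and assigned to genes, and on which build, is not given in the sources used here. Expected counts and FPKM of 39179 Ensembl gene IDs were deposited by the authors as 2 tables, and per the file headers each column is 1 library. Of the deposited expected counts, 14.1% held a fraction, so all were rounded. The authors' FPKM served for levels between genes and for 1 alternative with a pseudocount of 0.1. Symbols came from GENCODE M21 (37607 IDs matched and 1572 did not).

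The rounded counts went into edgeR 4.0.16 (R 4.3.3) with TMM, filterByExpr on genotype, age and sex, and the quasi-likelihood test. P-values were adjusted by Benjamini-Hochberg over every gene tested, and 0.05 was the threshold. All 7 genotypes of an age were fitted with sex. The slope, per 100 repeats by the length in each line's name, was fitted over the 6 knock-in lines together with sex. Ages were compared with genotype and sex in the model, and interactions were fitted as terms. SEs of log2 fold changes are their absolute values over the root of the F statistic. Nothing in the labels says whether libraries of a group came from separate litters or were prepared on separate days, so the p-values measure only the spread between these libraries, which may be technical. Totals of 32025244 to 57151736 counts per library gave each gene described at least 135 counts in every library.

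Covariation used log2 CPM (pseudocount 0.1) less the means of genotype and sex, with 2-sided permutation tests of 100000 resamples within genotype and sex. All 10 genes are named, with the 3 genes most like each, and from each other list up to 4 genes with the smallest p among those that passed. The genes, lists and tests were chosen with earlier results of these data known. Alternatives were DESeq2 1.42.0, RLE, no count filter, limma 3.58.1 on log2 FPKM, each sex alone, only the groups compared, the rank of the repeat length, library codes as a covariate, a block on the replicate number, and libraries left out. The sex comparison between ages, and the alternatives without libraries with Krt19 above 10 CPM, without each library of the slope and of the lines Q80 to Q140, within code sets, and without 3 Q20 females for the other lists, were chosen after seeing the data. The scripts were tested on simulated data before use. The main tests used every library.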

Additional observations from a re-analysis of the deposited data

Results flagged for a closer look

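In 10 of the 210 sets of 1 gene in 1 group of 7 or 8 libraries, 1 library stood apart from the others, where chance flags about 1 in 20 sets. For Hmox1 these were Q175 at 6 months, where female F1 had 29.9 CPM and the next library 15.4 CPM, Q140 at 6 months, where female F2 had 25.8 CPM and the next 17.8 CPM, Q111 at 10 months, where male M1 had 28.7 CPM and the next 18.9 CPM, and Q92 at 10 months, where female F1 had 17 CPM and the next 13.9 CPM. For Gclc, female F4 of Q140 at 6 months was low at 165 CPM, with 276 CPM in the next library. Gclm was low in female F2 of Q111 at 2 months, at 181 CPM with 201 CPM in the next, and high in male M2 of Q111 at 10 months, at 249.6 CPM with 205 CPM in the next. Gstm2 was high in male M2 of Q111 at 2 months, at 99.9 CPM with 74.4 CPM in the next. Srxn1 was high in male M2 of Q175 at 10 months, at 36.5 CPM with 30.6 CPM in the next, and Txnrd1 was low in female F4 of Q140 at 10 months, at 103 CPM with 123 CPM in the next. The groups hold both sexes, and the cause of these values was not tested.

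The difference between females and males itself differed between 10 and 2 months for Gstm3 by 0.67, for Nqo1 by 0.50, for Gstm1 by 0.30 and for Srxn1 by 0.24 on the log2 scale, by the interaction term in edgeR.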

How the results depend on the processing

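Over 36 counts of the 10 genes past the threshold, 385 of 423 alternative values stayed within 1.5 times the value reported. Over 74 single values 1004 of 1137 kept their direction and side of the threshold, 78 lost the call, 51 gained one and 4 changed sign. The sign changes were Gclm on FPKM, at 0.0169 for 6 against 2 months in knock-in lines, 0.0171 for Q20 against wild type at 6 months and 0.011 for females against males at 2 months, and Gstm3 at 0.16 for females against males at 6 months in wild type alone. The slope of 6 months, with 2 genes, gave 0 in females alone, 0 with the set of library codes, 0 without the Q20 libraries, 0 without Q20 F1, F3 and F4, 1 in males alone, 1 on FPKM, 1 by rank, 1 without Q175, and 1 to 3 with any 1 of 48 libraries left out. Without Q20 F1, F3 and F4 each line that had calls at 6 months fell to 0: Q80 (3 genes, 1 to 4 with 1 library left out), Q92 (3 genes, 2 to 5), Q140 (4 genes, 3 to 5) and Q175 (1 gene, 1 to 4). Q175 gave 3 in DESeq2, 0 in females and 2 in males. Q20 against wild type at 6 months, with 3 genes, gave 1 in females, 1 in males, 1 on FPKM and 3 to 4 with 1 library left out. Wild type alone gave 3 genes by sex at each age, against 9, 8 and 7. DESeq2 gave 1 gene in place of 0 in the slope by sex at 6 months, in Q111 at 10 months and in wild type for 10 against 2 months. FPKM gave 2 in place of 5 for 6 against 2 months in knock-in lines and 1 in place of 0 for 10 against 2 months. Apart from fewer samples in the left-out and single-sex fits, the cause was not tested.

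Counts over all genes moved more. At 6 months the slope had 879, and between 13 (without the Q20 libraries) and 1093 over the alternatives, Q111 106 (0 to 359), Q140 768 (132 to 1056), Q175 1595 (2 to 1970), Q80 1288 (125 to 1625), Q92 2602 (384 to 3235) and Q20 against wild type 4897 (1782 to 5135). At 10 months the slope had 39 (1 to 645) and at 2 months 40 (0 to 169). By sex wild type alone gave 1455, 2323 and 1842 at 2, 6 and 10 months, against 8651, 9449 and 8879.

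The replicate numbers of the labels do not pair the libraries: the mean correlation of same-numbered libraries of different genotypes was −0.009, 0.0554 and 0.0028 at 2, 6 and 10 months. With a replicate block the counts were 6 in place of 5 for 6 against 2 months in knock-in lines, 4 in place of 3 for Q20 against wild type and for Q92 at 6 months, and as reported elsewhere.

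Each of the 10 genes had 135 counts or more in every library. The spread between libraries was wide for some, with a median coefficient of variation of 20.8% for Hmox1 and 22% for Gstm3. The part of counting error in this spread was not tested.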
